A study of Homo sapiens with 6 samples.

Results

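The genes described here are the 10 AP-1 and small MAF transcription factors listed in the count table of ILL-treated cholangiocarcinoma cells, namely FOS, FOSB, FOSL1 and FOSL2 of the FOS family, JUN, JUNB and JUND of the JUN family, and the small MAF genes MAFF, MAFG and MAFK. They were chosen by gene symbol, and all 10 of them were found among the 19470 genes of the table. HCCC9810, an established human cholangiocarcinoma (CCA) cell line labelled wild type, was treated for 24 h with isolinderalactone (ILL), a plant sesquiterpene lactone, at 20 μM, or with the vehicle DMSO. Each group held 3 libraries of total RNA, and all of them come from this 1 cell line at 1 dose and 1 time. The labels do not say whether the libraries of a group came from separate cultures, so p-values measure the spread between these libraries, which may be technical. The comparison asks how ILL changes the transcriptome of CCA cells.

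FOS, JUN and MAF proteins are basic leucine zipper (bZIP) factors that bind DNA only as dimers. FOS proteins do not pair with themselves and bind DNA with a JUN partner as the AP-1 complex, whereas JUN proteins also pair with each other. AP-1 is switched on by growth factor and stress signaling through MAP kinases and drives genes of proliferation, invasion and epithelial plasticity, and FOSL1, which encodes FRA-1, is often abundant in carcinoma cells. The small MAF proteins lack a transactivation domain. They act as obligate partners of the cap'n'collar (CNC) factors, such as NFE2L2 (NRF2) at antioxidant response elements, and as repressors when they pair among themselves.

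Total counts lay between 34282764 and 37758569 per library, and the biological coefficient of variation over all 13066 genes tested was 0.0717. Levels are given as CPM, which are counts scaled to the TMM-adjusted size of each library, for comparisons between groups, and as the deposited FPKM, which divides by gene length, for comparisons between genes. Epithelial markers were present, since 7 of 8 biliary epithelial marker genes had at least 1 CPM in every library, with a summed level of 9050 to 9290 CPM in controls and 9530 to 10100 CPM with ILL. The summed level of 6 fibroblast markers was 12.1 to 14.2 CPM in controls and 16.8 to 18.4 CPM with ILL, that of 4 endothelial markers was 1.03 to 1.65 and 1.74 to 1.91 CPM, and that of 4 hepatocyte markers was 7.74 to 10.2 and 8.25 to 21.2 CPM. The 6 immune markers summed to 37.3 to 41.7 CPM in controls and 113 to 119 CPM with ILL, nearly all of it from the lysosomal gene CD68 (37.8 and 113 CPM), while PTPRC, CD3E and CSF1R were at or near 0. The part of these markers in the results was not tested. In such bulk libraries, fewer cells of a type and less RNA per cell cannot be told apart.

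Promoter sequences from RefSeq (GRCh38.p14, 250 bases before to 50 bases after the start) were matched by symbol for 8 of the 10 genes, and not for FOSL1 and MAFK. They were searched on both strands for the motifs that AP-1, CREB/ATF, NRF2 and serum response factors are known to bind, because FOS and JUN genes are known to be controlled through such elements. The matches to cAMP response and AP-1 motifs on the strand of the gene are printed in windows of 30 bases, 5′ to 3′, with the motif in capitals. The cAMP response element TGACGTCA was held by JUND, 200 bases upstream of its start (window chr19:18281804-18281833, minus strand), and by MAFF, 54 bases upstream (chr22:38201929-38201958, plus strand). It occurred in 1.85% of all 35116 promoter windows of this length. This share counts windows, whereas a gene counts as a holder when any of its windows matches, and 9 windows were searched for the 8 genes. Distances are counted from the RefSeq start and hold for that start only. The windows of FOSL2, JUN and MAFF lie wholly inside the GENCODE gene spans given below, and the MAFG match printed below lies outside its span.
JUND: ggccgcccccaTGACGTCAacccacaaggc
MAFF: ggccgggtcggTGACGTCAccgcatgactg

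The shorter motif TGACGT also matches within the full element. It was added after the sequences had been read, so that setting the members against all windows carries no weight for it. TGACGT was held by 6 of the 8 members and by 7.98% of all promoter windows. Besides JUND and MAFF these were FOS (64 bases upstream, chr14:75278752-75278781, plus strand), FOSB (60 bases upstream, chr19:45467924-45467953, plus strand), FOSL2 (66 bases upstream, chr2:28392780-28392809, plus strand) and MAFG (3 bases after the start, chr17:81927715-81927744, minus strand). The AP-1 motif TGANTCA was held by FOSL2 among the 8, at 4 bases after the start (chr2:28392851-28392880, plus strand), and by 7.71% of all promoter windows.
FOS: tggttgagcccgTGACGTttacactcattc
FOSB: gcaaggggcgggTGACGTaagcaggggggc
FOSL2: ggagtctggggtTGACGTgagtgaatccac
MAFG: ccaaacatcatgTGACGTctgtggagcggc
FOSL2, AP-1 motif: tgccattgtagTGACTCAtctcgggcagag

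The antioxidant response element core TGACNNNGC was found in JUND and MAFF and in 13.3% of all windows. In JUND 1 of its matches overlaps a TGACGT match, both on the strand opposite to the gene. The C/EBP-ATF core TGATGNAA (3.62% of all windows) and the serum response element (1.29%) were found in 0 of the 8. Sequence farther upstream was not searched. The TGACGT holders included FOS and FOSB, which did not pass the test below, as well as 4 genes that rose. A match describes these letters in this window and is not a measured binding site.

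With ILL, FOSL1 fell while FOSL2, all 3 JUN genes and all 3 small MAF genes rose, and FOS and FOSB did not pass the test. At an adjusted p under 0.05 from edgeR's quasi-likelihood test (Benjamini-Hochberg over all genes tested), 7 of the 10 members were higher with ILL, against 36.2% of all genes tested, and 1 was lower, against 36.9%. A gene was called differentially expressed (DEG) when its fold change was also above 2 or under 0.5. MAFG and MAFK were DEGs higher with ILL, 2 of the 10 members against 12.5% of all genes, and FOSL1 was a DEG lower with ILL, 1 of 10 against 11.4%. In 8 of the 10 members the ILL libraries did not overlap with the control libraries, which was so for 75.4% of all genes, so that this count and the DEG counts lie near the background. The median log2 fold change of the members was 0.83, against -0.0012 over all genes tested. All 10 members passed the filter on low counts.

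**Figure D1:**
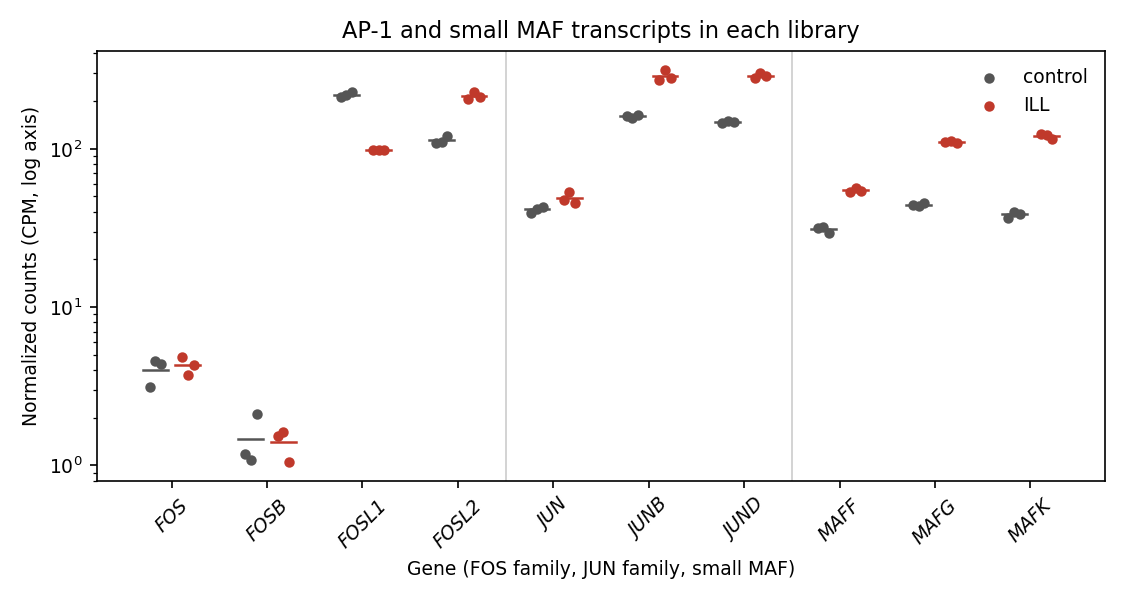
Normalized counts (CPM, log axis) of the 10 members in each of the 3 control (grey) and 3 ILL (red) libraries; bars mark the means of each group. FOSL1 lies lower with ILL, FOS and FOSB overlap, and the other 7 genes lie higher.

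FOSL1 (ENSG00000175592.8) lies on chromosome 11 of GRCh38 from 65892049 to 65900573 on the minus strand. FOSL1 was at 213, 219 and 227 CPM in control replicates 1 to 3, and at 97.5, 98.2 and 98.5 CPM in ILL replicates 1 to 3. Every ILL library lay below every control library, and the ILL libraries differed from each other by less than the controls did. The log2 fold change was -1.16 (standard error 0.052, edgeR adjusted p = 5.1e-16), a level 2.24-fold lower with ILL. It was the sole member that fell, and it stood at percentile 9.12 of the log2 fold changes of all genes tested. In controls FOSL1 was the most abundant member per length, at 132 ± 3.54 FPKM (SD, n = 3), and with ILL it was at 56.2 ± 0.263 FPKM (SD, n = 3), below JUNB and JUND.

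FOSL2, which encodes FRA-2, the closest relative of FRA-1, moved the other way. FOSL2 (ENSG00000075426.11, chromosome 2 from 28392448 to 28417312, plus strand) was at 108, 111 and 119.8 CPM in controls and at 207, 228 and 211 CPM with ILL. The groups did not overlap, and ILL replicate 2 was the highest library. Its log2 fold change was 0.93 (standard error 0.057, edgeR adjusted p = 2.2e-13), or 1.91-fold, just short of the fold change cutoff. The ratio of FOSL2 to FOSL1, both in FPKM, was 0.0996 ± 0.00231 (SD, n = 3) in controls and 0.425 ± 0.0216 (SD, n = 3) with ILL, so that it was 4.27 times as high. The libraries did not overlap in this ratio (exact permutation test, two-sided, p = 0.1, the smallest p that 3 libraries against 3 can give). Taken from CPM, which does not divide by gene length, the mean ratio was 0.514 in controls and 2.2 with ILL.

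FOS and FOSB, the classical immediate-early members that serum or stress induces within minutes, were the least abundant. FOS (chromosome 14 from 75278774 to 75282230) had 122, 160 and 155 counts in controls and 170, 128 and 151 counts with ILL. FOSB (chromosome 19 from 45467995 to 45475179) had 46, 38 and 75 counts in controls and 54, 56 and 37 counts with ILL. In both genes the groups overlapped, with control replicate 1 lowest for FOS and control replicate 3 highest for FOSB. The FOS log2 fold change was 0.10, with a 95% interval from -0.33 to 0.53 (edgeR adjusted p = 0.691). That of FOSB was -0.05, with an interval from -0.81 to 0.71 (edgeR adjusted p = 0.907). A 2-fold change in either direction lay outside both intervals, and smaller changes within them cannot be told from no change here.

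FOSL1 gave most of the FOS family's FPKM in both groups, and less of it with ILL. In CPM it gave most in controls only, since with ILL FOSL2 (mean 215.3 CPM) lay above FOSL1 (98.06 CPM). FOSL1 made up 89.85%, 89.52% and 89.12% of the summed FPKM of the 4 FOS genes in control replicates 1 to 3, and 68.6%, 67.2% and 68.7% with ILL. FOSL2 took 8.91% ± 0.177 (SD, n = 3) in controls and 28.98% ± 1.11 (SD, n = 3) with ILL. FOS took 1.32% ± 0.225 and 2.42% ± 0.352 (SD, n = 3 each). The groups did not overlap for these 3 shares (exact permutation test, two-sided, p = 0.1 for each, the smallest possible), and did for FOSB (p = 0.2 from the same exact test). The FOS share was higher although FOS itself did not pass the test. The sum of the family was 143, 147 and 152 FPKM in controls and 82.0, 83.3 and 82.2 FPKM with ILL, 0.559 times as high. Summed as CPM, in which gene length does not enter, the family was at 325.7, 335.3 and 353.1 in controls and at 310.5, 331.6 and 315.3 with ILL, so that the groups overlapped (0.944 times as high, exact permutation test, two-sided, p = 0.2). When shares were taken of TMM-scaled counts in place of FPKM, the FOSL1 difference was -34.2 percentage points in place of -21.3, since the longer FOSL2 gene (8787 bases in the FPKM values, against 1702 for FOSL1) then weighs more, and the FOS difference was 0.164 in place of 1.10.

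JUNB and JUND, which as AP-1 partners are generally weaker activators than JUN, were the most abundant JUN genes. JUNB (ENSG00000171223.5, chromosome 19 from 12791496 to 12793315, plus strand) was at 159.9, 157 and 163 CPM in controls and at 273, 313 and 279.7 CPM with ILL. JUND (ENSG00000130522.5, chromosome 19 from 18279760 to 18281622, minus strand) was at 145, 150.2 and 147 CPM in controls and at 278, 303 and 289 CPM with ILL. All ILL libraries were above all controls in both genes, ILL replicate 2 was the highest in both, and the ILL libraries were more spread out than the controls. JUNB had a log2 fold change of 0.85 (standard error 0.055, edgeR adjusted p = 7.7e-13), or 1.80-fold. For JUND it was 0.98 (standard error 0.052, edgeR adjusted p = 1.3e-14), or 1.97-fold. Without ILL replicate 1 the JUND value was 1.01, past the fold change cutoff, and the count of members called DEGs higher with ILL was then 3 in place of 2.

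JUN, which encodes c-Jun, changed less. JUN (ENSG00000177606.6, chromosome 1 from 58780788 to 58784327, minus strand) was at 39.2, 41.8 and 43.1 CPM in controls and at 47.6, 53.1 and 45.2 CPM with ILL. The groups did not overlap, but ILL replicate 3 lay close to control replicate 3. Its log2 fold change was 0.23 (standard error 0.072, edgeR adjusted p = 0.00533), or 1.18-fold, and across the alternatives the adjusted p ranged from 0.00251 to 0.0862. On log2 of FPKM plus 1 it was 0.15, and without an FPKM filter it then missed the threshold (limma adjusted p = 0.0862). The share of JUN in the summed FPKM of the JUN family was 7.19% ± 0.272 in controls and 4.62% ± 0.202 with ILL (SD, n = 3 each), with no overlap (exact permutation test, two-sided, p = 0.1, the smallest possible). The JUN difference was -2.57 percentage points in FPKM and -4.11 in TMM-scaled counts.

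JUND took 43.3% ± 0.719 and 46.6% ± 0.879 of that sum (SD, n = 3 each), also without overlap and with the same smallest exact p, while the JUNB shares of 49.5% ± 0.772 and 48.8% ± 0.75 overlapped (exact permutation test, p = 0.2). The JUNB difference of -0.73 percentage points became 0.0997 in TMM-scaled counts, the opposite sign. The summed JUN family was 179, 181 and 182 FPKM in controls and 302, 334 and 309 FPKM with ILL. Divided by the FOS family sum, it was 1.25, 1.23 and 1.19 in controls and 3.69, 4.01 and 3.76 with ILL. The groups did not overlap in this ratio (exact permutation test, two-sided, p = 0.1, the smallest possible), which was 3.12 times as high with ILL. From sums of CPM it was 1.06, 1.04 and 0.999 in controls and 1.93, 2.02 and 1.95 with ILL, also without overlap, and 1.90 times as high. In GENCODE release 29 all transcripts of JUN and JUNB and at least 1 of JUND have 1 exon, whereas the coding transcripts of the FOS and MAF genes have at least 2.

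MAFK and MAFG rose most among the members, and MAFF rose as well. MAFK (ENSG00000198517.9, chromosome 7 from 1530714 to 1543043, plus strand) was at 36.8, 40.1 and 38.7 CPM in controls and at 124, 123 and 116 CPM with ILL. MAFG (ENSG00000197063.10, chromosome 17 from 81918270 to 81927714, minus strand) was at 44.0, 43.7 and 45.5 CPM in controls and at 110.5, 112 and 108 CPM with ILL. MAFF (ENSG00000185022.11, chromosome 22 from 38200767 to 38216511, plus strand), the small MAF best known as inducible by stress and cytokines, was at 31.7, 31.9 and 29.4 CPM in controls and at 53.4, 56.3 and 54.3 CPM with ILL. The groups were apart in each, and the gap between them was several times the range within either group. MAFK had the largest log2 fold change of the members, 1.65 (standard error 0.061, edgeR adjusted p = 9.9e-18), or 3.14-fold, at percentile 94.5 of all genes tested. MAFG followed with 1.31 (standard error 0.058, edgeR adjusted p = 3.7e-16), or 2.49-fold. For MAFF it was 0.82 (standard error 0.068, edgeR adjusted p = 7.8e-11), or 1.76-fold. The 95% intervals, 1.53 to 1.78 for MAFK, 1.19 to 1.43 for MAFG and 0.68 to 0.96 for MAFF, did not overlap.

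In FPKM, MAFF was the most abundant small MAF gene in controls, and MAFK was with ILL. MAFF made up 40.4% ± 1.48 of their sum in controls and 29.7% ± 0.76 with ILL (SD, n = 3 each). For MAFK these shares were 32.25% ± 1.06 and 42.1% ± 0.873. Neither of these shares overlapped between groups (exact permutation test, two-sided, p = 0.1 for each, the smallest possible), whereas the MAFG share of 27.3% ± 1.01 and 28.2% ± 0.136 did (p = 0.3 from the same exact test). The MAFG difference of 0.906 percentage points became -0.394 in TMM-scaled counts. The sum of the 3 genes was 32.0, 32.8 and 31.6 FPKM in controls and 74.5, 74.7 and 71.8 FPKM with ILL, 2.29 times as high.

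**Figure D2:**
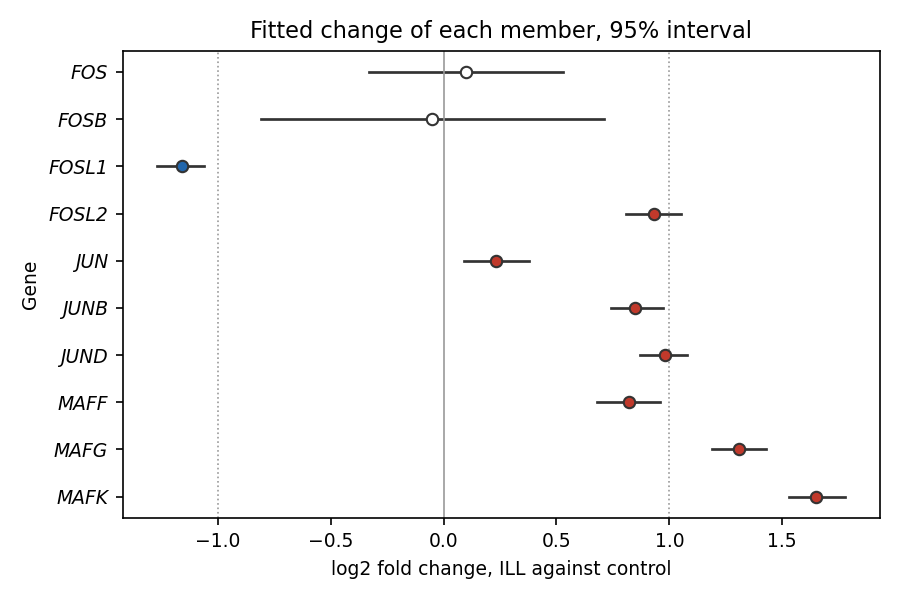
Log2 fold change of each member, ILL against control, with its 95% interval from edgeR's quasi-likelihood fit; red marks genes higher with ILL at an adjusted p under 0.05, blue lower, white neither, and dotted lines mark a 2-fold change. FOSL1 at -1.16 stands apart from the 7 members between 0.23 and 1.65.

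The order of levels per length changed as follows. In controls FOSL1 came first at 132 FPKM, then JUNB at 89.5 and JUND at 78.2 FPKM, each apart from its neighbours. FOSL2, JUN and MAFF followed at 13.2, 13.0 and 13.0 FPKM and overlapped as neighbours, so that they do not differ beyond their spread. MAFK at 10.4, MAFG at 8.78, FOS at 1.96 and FOSB at 0.396 FPKM came last, none overlapping the next. With ILL the order was JUNB at 153.9 and JUND at 146.6 FPKM, which overlapped, and then FOSL1 at 56.2, MAFK at 31.0, FOSL2 at 23.9, MAFF at 21.8, MAFG at 20.8, JUN at 14.6, FOS at 1.995 and FOSB at 0.364 FPKM. From FOSL1 downward no neighbours overlapped with ILL.

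Several members share part of their span with another annotated gene, and the sources used here do not say whether counting used the strand. SIRT7 lies on the same strand as MAFG and overlaps its span. It was at 39.0 CPM in controls and 58.5 CPM with ILL, a log2 fold change of 0.59 (edgeR adjusted p = 7.1e-08). On the strand opposite to their member, HOOK2 beside JUNB had a log2 fold change of 0.30 at 24.6 and 30.3 CPM, TMEM184A beside MAFK 0.38 at 21.3 and 27.7 CPM, PLA2G6 beside MAFF 0.41 at 2.18 and 2.90 CPM, and ERCC1 beside FOSB -0.01 at 70.6 and 70.3 CPM, in controls and with ILL respectively. FOSL2 overlaps 2 annotated non-coding genes and MAFG 1 antisense gene that are not rows of the count table. FOS, FOSL1, JUN and JUND overlap 0 other annotated genes. The part of shared reads in these values was not tested.

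The related gene lists that follow are hand-written, and their counts are to be read against those of all genes tested. At an adjusted p under 0.05, 36.2% of all genes tested were higher with ILL and 36.9% lower, so calls in both directions are the background. DEGs in either direction made up 23.9% of all genes tested, and the median log2 fold change over all of them was -0.0012. Other bZIP genes that pair with JUN, FOS or MAF proteins were mostly higher with ILL. Of the 14 genes of a hand-written list of large MAF, ATF, BATF and related factors, 13 were tested, 11 rose and 1 fell at an adjusted p under 0.05, 6 were DEGs higher with ILL (46.2% of those tested), and the median log2 fold change was 0.87. ATF3, a stress-induced factor that pairs with JUN proteins, was at 2.24, 2.68 and 2.46 CPM in controls and at 26.9, 29.6 and 22.6 CPM with ILL, a log2 fold change of 3.42 (standard error 0.134, edgeR adjusted p = 3.2e-17). CREB5, a JUN partner at cAMP response elements, rose from 4.27 ± 0.298 to 40.5 ± 1.77 CPM (SD, n = 3 each), by a log2 fold change of 3.25. Both groups were far apart in these genes, which started from low levels. MAFA, a large MAF, had a log2 fold change of 1.98, also from a low level. It had 28, 36 and 26 counts in controls and 99, 129 and 114 counts with ILL.

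At the lower end of this list were BATF at 0.52, ATF7 at 0.41 and ATF5, which fell by 0.54 (edgeR adjusted p = 2.6e-06). The BATF value, with an edgeR adjusted p of 0.0388, missed the threshold without control replicate 1 (0.131), control replicate 2 (0.0705), ILL replicate 1 (0.0981) or ILL replicate 3 (0.109), and with scaling by library size alone (0.071). JDP2 and MAF were picked out after their values were seen. JDP2, a repressor that pairs with JUN proteins, was at 18.5, 18.4 and 15.2 CPM in controls and at 58.7, 65.1 and 66.6 CPM with ILL, and its log2 fold change was 1.87 (edgeR adjusted p = 2.9e-16). MAF itself had 0, 2 and 4 counts in controls and 43, 38 and 26 counts with ILL (edgeR adjusted p = 1.2e-05), and its fitted log2 fold change of 4.13 depends on the prior count.

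Among the partners of the small MAF proteins and their regulator KEAP1, 6 of 7 listed genes were tested, and 3 rose and 3 did not pass (NFE2, NFE2L3 and KEAP1), with a median log2 fold change of 0.91. NFE2L1 was at 90.9, 89.7 and 98.7 CPM in controls and at 218, 224 and 220.5 CPM with ILL, and its log2 fold change was 1.25 (standard error 0.054, edgeR adjusted p = 2.8e-16). BACH1, a repressor of antioxidant genes that competes with NRF2 for small MAF, had a log2 fold change of 1.02, and NFE2L2 one of 0.88. These activators and the repressor thus rose together with MAFF, MAFG and MAFK. The count of DEGs in this list, 2 (33.3% of those tested), was 4 without control replicate 3 and 1 without ILL replicate 1.

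Of 22 genes known as targets of NRF2 with small MAF, 20 rose and 2 did not pass. In this list 9 were DEGs higher with ILL (40.9% of those tested), and the median log2 fold change was 0.80. SLC7A11, the cystine transporter, was at 50.5, 47.0 and 46.5 CPM in controls and at 413, 349 and 344 CPM with ILL, a log2 fold change of 2.94. HMOX1, heme oxygenase, had 2.36, and TXNRD1, thioredoxin reductase, rose from 155 to 622 CPM. The lowest among those that rose were EPHX1 at 0.45 and GSR at 0.40. In all 5 of these genes the groups did not overlap, which was a condition for naming them.

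Target genes of AP-1 moved in both directions. Of 35 listed genes 34 were tested, 19 rose, 11 fell and 4 did not pass. DEGs were 10 higher and 2 lower with ILL (35.3% of those tested), and the median log2 fold change was 0.45. PLAUR, the urokinase receptor, was at 78.8, 74.3 and 89.2 CPM in controls and at 379, 413 and 395 CPM with ILL, a log2 fold change of 2.29 (standard error 0.062, edgeR adjusted p = 2.7e-20). KRT16, a keratin of activated epithelium, had 2.25 and VEGFA, an angiogenic growth factor, 2.15. IL11, a cytokine, was at 60.03, 53.8 and 54.6 CPM in controls and at 14.3, 12.5 and 10.8 CPM with ILL, a log2 fold change of -2.16 (edgeR adjusted p = 1.0e-16). The intermediate filament gene VIM fell by 1.77 and the hyaluronan receptor gene CD44 by 0.92. FOSL1 thus fell alongside some AP-1 targets while others rose alongside FOSL2, JUNB and JUND, and no test ties a target to a member here.

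**Figure D3:**
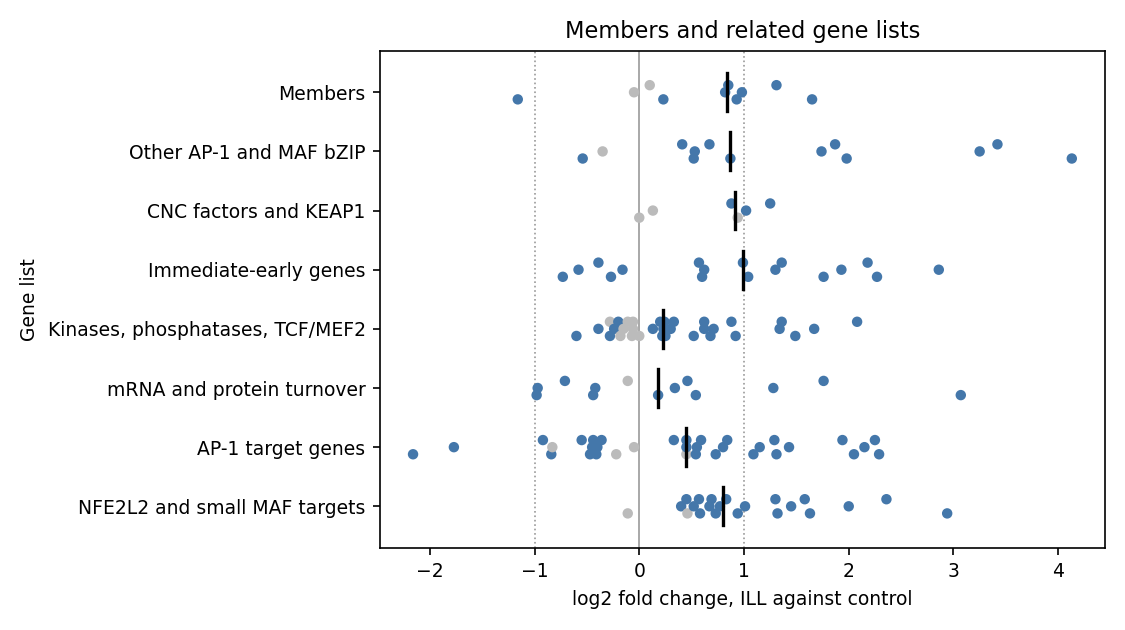
Log2 fold change, ILL against control, of the members and of the tested genes of each related list; blue points passed an adjusted p under 0.05, grey points did not, black bars are medians and dotted lines mark a 2-fold change. Medians are 0.83 for the members, 0.87 for the other bZIP genes, 0.80 for the NRF2 and small MAF targets and 0.45 for the AP-1 targets.

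A list of immediate-early and related genes other than FOS and FOSB, which includes serum response factor (SRF) itself, was read for comparison. ZFP36 is in this list and also in the turnover list below. Of 19 listed genes 17 were tested, and 12 rose and 5 fell. DEGs higher with ILL were 8 (47.1% of those tested), and the median log2 fold change was 0.99. With limma on log2 of FPKM this list held 4 DEGs at a pseudocount of 1 and 5 at 0.1. EGR1 was at 2.32, 3.93 and 3.25 CPM in controls and at 9.68, 12.4 and 13.9 CPM with ILL, a log2 fold change of 1.93 (standard error 0.179, edgeR adjusted p = 7.1e-10). KLF4 had 2.18 and EGR4, from 0.323 to 2.40 CPM, 2.86. In contrast, CCN2 fell by 0.73, CCN1 by 0.58 and KLF2 by 0.39. FOS and FOSB, whose log2 fold changes stood at percentiles 55.3 and 47.3 of all genes tested, did not pass the test.

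The list of genes that act upstream of AP-1 genes held 33 MAP kinases, their phosphatases, and TCF and MEF2 factors. Of these 20 rose, 5 fell and 8 did not pass. The median log2 fold change was 0.23, and 5 were DEGs (15.2%, against 23.9% of all genes tested), all higher with ILL. The JNK phosphatase genes DUSP8 and DUSP16 had log2 fold changes of 2.08 and 1.67. DUSP8 was at 7.005, 6.92 and 5.60 CPM in controls and at 24.3, 28.7 and 29.6 CPM with ILL. MEF2A, a factor known to bind the JUN promoter, had 1.49. The JNK genes MAPK8 and MAPK9 fell by 0.60 and 0.28 and the TCF gene ELK1 by 0.39. No overlap between groups was a condition for naming them.

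Regulators of AP-1 mRNA and protein turnover moved both ways, with 7 of 13 higher, 5 lower and 1 not passing, and a median log2 fold change of 0.18. TRIB3, a pseudokinase induced by ATF4, had the largest log2 fold change at 3.07. ZFP36, which destabilizes AU-rich mRNAs such as that of FOS, rose from 26.1 ± 1.56 to 88.5 ± 3.02 CPM (SD, n = 3 each), a log2 fold change of 1.76 (edgeR adjusted p = 1.7e-17), and DET1, part of the ubiquitin ligase that degrades JUN, had 1.28. The RNA-binding protein genes KHSRP, HNRNPD and ELAVL1 fell by 0.98, 0.97 and 0.71. This list held 3 DEGs (23.1% of those tested, against 23.9% of all genes), all higher with ILL. It held 5 without ILL replicate 2 or with scaling by library size alone.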

How the data were processed

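RNA of HCCC9810 cells was compared between 20 μM ILL and vehicle after 24 h, with 3 libraries per group. Unnormalized counts and FPKM were deposited by the authors for each gene symbol and each library. A count divided by 1 length per gene and by the library total returned 100% of 88055 nonzero deposited FPKM values within 0.1%. The submitters' processing notes list GRCh38 and DESeq2, and the aligner, counting program and annotation are not given in the sources used here. No library was a duplicate of another (chi-square per degree of freedom between libraries of 1 group, 5.1 to 11.8).

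Counts were filtered with filterByExpr (edgeR 4.0.16, R 4.3.3), which left 13066 genes, scaled by TMM and compared in edgeR's quasi-likelihood framework, with p-values adjusted by Benjamini-Hochberg. The procedure was run on simulated counts in which few genes changed and all genes had the same dispersion. Far more genes were called in the real libraries, so that run gives no error rate for them. Standard errors were derived from the log2 fold change and the F statistic. Intervals are 95% and cover the spread between libraries. Family shares and ratios were compared by exact permutation tests (scipy 1.17.1). Summed FPKM values were not rescaled by TMM. Alternatives were DESeq2 1.42.0, its size factors, library size alone, other filters, a replicate block, each library left out, and limma 3.58.1 on FPKM with pseudocounts of 1 or 0.1. In each related list at most 3 genes at either end are named (1 gene that met the rule is not reported here), provided the adjusted p was under 0.05, groups did not overlap and the mean reached 1 CPM. Members and lists were chosen with earlier results of these data known, and no set test was run. Gene positions are from GENCODE release 29, on GRCh38.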

Additional observations from a re-analysis of the deposited data

How the results depend on the processing

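Of the 10 members, 7 held the same direction and side of an adjusted p of 0.05 in all alternatives run. By the DEG rule JUND changed as well, at 1.01 without ILL replicate 1. Leaving out 1 library, FOS ranged from -0.06 (without control replicate 1) to 0.19 and was -4.9e-05 without ILL replicate 1, and FOSB ranged from -0.23 to 0.31 (without control replicate 3) and was 0.12 without ILL replicate 3, none past the threshold. JUN missed it on log2 of FPKM plus 1 without a filter. Among the genes named by rule from the related lists, BATF was the exception on the same terms, while the DEG status of some others, such as BACH1 and MAFA, did change. The rule had already required an adjusted p under 0.05 and groups without overlap in these same libraries. That most of the named genes held therefore follows in large part from how they were picked. On log2 of FPKM plus 1, which compresses low values, CREB5 was 1.58, MAFA 0.74, EGR4 0.84, EGR1 1.22, DET1 0.66, DUSP8 1.38, MMP13 0.45 and MAF 0.04.

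Without the fold change cutoff 7 members were called higher in place of 2, and the lists held 12 (other bZIP genes), 17 (immediate-early), 25 (kinases and phosphatases), 12 (turnover), 30 (AP-1 targets) and 20 (NRF2 targets) calls, which follows from dropping the cutoff. The CNC list had 1 DEG with library size alone and in all 3 limma fits, and 1 to 4 without 1 library. The immediate-early list had 4 DEGs on log2 of FPKM plus 1, with or without the filter, and 5 with a pseudocount of 0.1. The turnover list had 5 DEGs with library size alone and with the pseudocount of 0.1, and 3 to 5 without 1 library. The cause of these moves was not tested.

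On TMM-scaled counts, the differences in family share (ILL minus control, percentage points) were 0.164 for FOS, 0.0121 for FOSB, -34.2 for FOSL1, 34 for FOSL2, -4.11 for JUN, 0.0997 for JUNB, -8.08 for MAFF, -0.394 for MAFG and 8.48 for MAFK, since gene length no longer enters. By the same change, chosen after seeing the data, the ratio of ILL to control was 0.944 for the FOS family sum, 2.51 for the small MAF sum, 1.90 for JUN over FOS family and 2.66 for small MAF over FOS family (0.559, 2.29, 3.12 and 4.10 in FPKM).

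Same-numbered libraries did not deviate together (correlations of 0.0107, -0.0218 and -0.0179 over 13066 genes), and 2 of 6 libraries correlated best with their own number. With 3 libraries per group this cannot show whether same-numbered libraries shared a culture or day, and the labels do not say. With the replicate number as a block, 2 members were DEGs higher and 1 lower, as without it. FOS and FOSB had the lowest counts and the widest intervals of the members. The part of low counts in their results was not tested.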

Other observations

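Matrix metalloproteinase genes of the AP-1 target list were picked out after their values were seen, and MMP1, MMP10 and MMP13 rose. MMP1, a collagenase, was at 23.1, 29.7 and 38.3 CPM in controls and at 56.6, 51.6 and 55.2 CPM with ILL, a log2 fold change of 0.84 (edgeR adjusted p = 1.9e-07). Control libraries differed more from each other than the ILL libraries in this gene. MMP10, a stromelysin, had 108, 115 and 173 counts in controls and 531, 465 and 462 counts with ILL, a log2 fold change of 1.94. MMP13, another collagenase, had 0.80. MMP9 at 1.25 and 1.71 CPM and MMP7 at 0.58 and 0.326 CPM, in controls and with ILL respectively, did not pass the test (edgeR adjusted p = 0.25 and 0.178), and MMP3 had 0 counts in all 6 libraries.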
